A study of Fragaria x ananassa with 3 samples.

Results

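The miR396 family of strawberry fruit comprised 5 mature sequences of 1310 in the small RNA data, and 7 of the 103 target genes in the degradome data. Of these sequences, 4 are named as miR396, and the new candidate PC-3p-311835_12 was added because it matches a miR396 3p strand. The target genes are all those listed under a miR396 name. The fruit was of the cultivar Zhangji (Fragaria ananassa), harvested at commercial maturity and held at 20 °C and a relative humidity near 85%. Small RNAs were sequenced from 1 library of fruit stored for 0 h and 1 library of fruit stored for 24 h. Cleaved mRNA ends, the degradome, were sequenced from 1 library of a mixture of both storage times. Reads of the cultivated strawberry were placed on the genome of the woodland strawberry, Fragaria vesca, so copies of a locus that only the cultivated genome holds cannot be told apart. There are no replicates, so a difference between 0 h and 24 h is a difference between these libraries and has no replicate check. Intervals are exact counting intervals at the 95% level, which cover counting error only.

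In plants, a primary miRNA transcript folds into a hairpin, and Dicer-like enzymes cut a duplex from it. One strand, the guide, is loaded into an Argonaute protein and directs the cleavage of mRNAs that pair with it, while the partner strand is usually degraded. For miR396 the guide comes from the 5p arm. Its best known targets are the growth-regulating factors (GRFs), transcription factors that act with GIF coactivators to keep cells of leaves and floral organs dividing. Raised miR396 in Arabidopsis lowers GRF mRNAs and makes smaller leaves.

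The mature sequences are shown because strands of the same arm differ by few bases. Bases 2 to 8, the seed, are in capitals.
mdm-miR396b: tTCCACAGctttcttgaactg
mdm-miR396e: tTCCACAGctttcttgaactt
gma-miR396a-3p_L+1: gTTCAATAaagctgtgggaag
ptc-miR396e-3p_1ss19GC: cTCAAGAAagctgtgggaca
PC-3p-311835_12: cTCAAGAAatctgtgggaca
The 5p strands mdm-miR396b and mdm-miR396e have 21 nt and the same seed, and no other listed sequence has this seed. Counted from the 5′ end of mdm-miR396b, mdm-miR396e differs from it by G21T alone. Counted from the 5′ end of ptc-miR396e-3p_1ss19GC, the candidate PC-3p-311835_12 differs from it by G10T alone, and these 3p strands of 20 nt also share their seed with no other listed sequence. The third 3p strand, gma-miR396a-3p_L+1, has a seed of its own. It differs from ptc-miR396e-3p_1ss19GC at 4 bases when shifted by 1 base. Of all other listed sequences, 0 came within 3 mismatches of a miR396 strand.

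The hairpins are shown because they tell which strands can come from 1 precursor. The pair with the largest difference between storage times lies on scaffold scf0513105 of the Fragaria vesca genome 1.0, plus strand, in a window from 1066572 to 1066832, with the 5p and 3p strands in capitals.
Hairpin of mdm-miR396b and gma-miR396a-3p_L+1: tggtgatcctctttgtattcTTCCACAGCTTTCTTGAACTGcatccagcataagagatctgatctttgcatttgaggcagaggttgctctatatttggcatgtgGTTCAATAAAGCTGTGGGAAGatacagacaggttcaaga
The hairpin of mdm-miR396e lies 4545 bases further along the same scaffold, on the minus strand, in a window from 1071378 to 1071638.
Hairpin of mdm-miR396e and ptc-miR396e-3p_1ss19GC: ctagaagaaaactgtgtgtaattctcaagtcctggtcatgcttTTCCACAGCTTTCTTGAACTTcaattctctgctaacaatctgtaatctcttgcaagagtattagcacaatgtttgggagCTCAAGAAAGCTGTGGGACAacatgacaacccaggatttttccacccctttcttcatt
Folded with RNAfold, the first hairpin of 143 nt had a minimum free energy of -64.8 kcal per mol, with 18 of the 21 bases of the 5p strand paired to the 3p strand. The second, of 180 nt, had -64.4 kcal per mol, with 17 bases paired. The sequence of mdm-miR396b is also held by a hairpin on scaffold scf0513148 (plus strand, window from 214169 to 214429) and by one on scaffold scf0513104 (minus strand, window from 199769 to 200029). The latter holds gma-miR396a-3p_L+1 as well, although the table lists that precursor for the 3p strand alone. Only hairpins listed under a miR396 name were searched. Among them, reads of mdm-miR396b can thus come from 3 and those of gma-miR396a-3p_L+1 from 2, while mdm-miR396e and ptc-miR396e-3p_1ss19GC were each found in 1. The precursor listed for PC-3p-311835_12 was not examined. The 3p arm of the hairpin on scf0513148 is not among the listed sequences. Whether any of these loci lies in a gene was not analysed here.

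The miR396 family was of medium abundance in the fruit. Its 4 named strands held 0.0269% of the listed miRNA reads at 0 h and 0.0323% at 24 h, and ranked 12 among 31 families of known miRNAs. The listed miRNAs summed to 3006293 raw reads in the 0 h library and 2998588 in the 24 h library. By raw reads over both libraries, mdm-miR396b ranked 79 of all 1310 names and 29 of the 85 known ones, and PC-3p-311835_12 ranked 1229. With all 5 sequences summed, the family went from 813 raw reads at 0 h to 981 at 24 h. Ratios of 24 h to 0 h were taken from the authors' normalized reads, and a ratio above 2 or below its inverse (a log2 ratio above 1 or below -1) is called past 2-fold. The summed ratio was 1.11 (95% counting interval 1.01 to 1.22). In whole fruit, a change in the cells present and a change in RNA per cell cannot be told apart.

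Both guide strands had more reads at 24 h, within 2-fold. The more abundant one, mdm-miR396b, went from 324 raw reads at 0 h to 466 at 24 h. Relative to all listed miRNA reads, this was 108 RPM (96.4 to 120) at 0 h and 155 RPM (142 to 170) at 24 h. Its normalized reads were 297 and 394, a ratio of 1.33 (1.15 to 1.53). The other, mdm-miR396e, had 154 and 244 raw reads, which became 141 and 206 normalized reads and a ratio of 1.46 (1.19 to 1.80). Summed, the 5p strands went from 478 to 710 raw reads, with a ratio of 1.37 (1.22 to 1.54). The summed value is not a further observation. These intervals, which cover counting error only, lie above equal values. The share of all tested names for which this holds was not determined. The proportion of the guides to each other was much the same in both libraries. There were 2.10 reads of mdm-miR396b for each read of mdm-miR396e at 0 h (1.73 to 2.57) and 1.91 at 24 h (1.63 to 2.24). The 24 h proportion was 0.908 times that of 0 h (0.704 to 1.17), so no difference was detectable at this depth.

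The partner strands differed in opposite directions. The strand gma-miR396a-3p_L+1 went from 247 to 129 raw reads, which became 226 and 109 normalized reads. Its ratio was 0.482 (0.387 to 0.599), past 2-fold lower, though the interval reaches within 2-fold. In contrast, ptc-miR396e-3p_1ss19GC went from 85 to 129 raw reads, with a ratio of 1.40 (1.06 to 1.86). At 0 h there were thus 2.91 reads of the former for each read of the latter (2.26 to 3.76), and at 24 h the counts were equal, with a ratio of 1.00 (0.777 to 1.29). This proportion at 24 h was 0.344 times that of 0 h (0.240 to 0.494). The candidate PC-3p-311835_12 had 3 raw reads at 0 h (Poisson interval 0.619 to 8.77) and 13 at 24 h (6.92 to 22.2). Its ratio of normalized reads, which are whole numbers (3 and 11), was 3.67, past 2-fold higher. The interval, taken from raw reads and the library factors and so not from these whole numbers, was 1.10 to 21.9. With so few reads, the size of this difference was not detectable at this depth. All 8 tested names with at most 3 raw reads at 0 h were past 2-fold higher, which the filter of 10 raw reads in at least 1 library fixes for names that low.

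**Figure D1:**
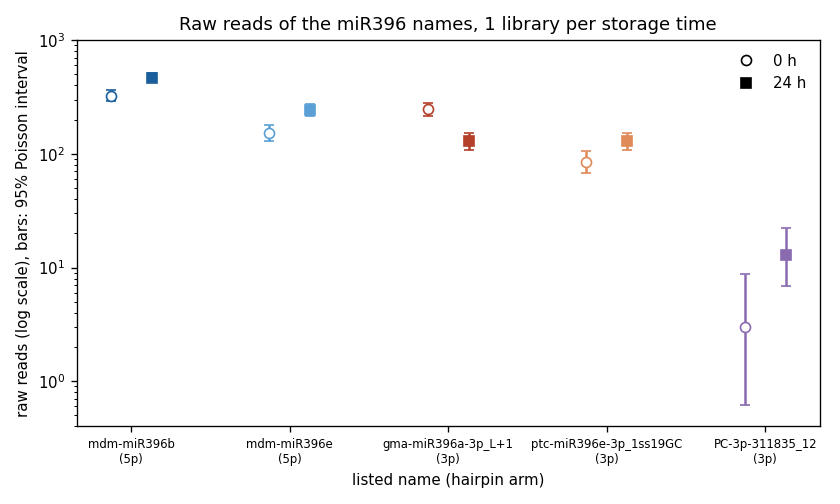
Raw reads (log scale) of the 5 miR396 sequences at 0 h (open circles) and 24 h (filled squares), with 95% Poisson intervals and 1 library per point. Only gma-miR396a-3p_L+1 was lower at 24 h (247 against 129 reads), and the other 4 sequences were higher.

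Past 2-fold, 1 of the 5 sequences was higher (PC-3p-311835_12) and 1 lower (gma-miR396a-3p_L+1). With 3 raw reads at 0 h, the call of PC-3p-311835_12 was fixed by the filter. Among all 1248 names tested, 6.25% were higher and 3.69% lower by the same rule, or 9.94% in either direction. Among the 212 names that reached 100 raw reads in a library, 5 were past 2-fold lower, and gma-miR396a-3p_L+1 is 1 of them. With raw reads as they stand, or scaled by the total of listed miRNAs, its log2 ratio was -0.94 and -0.93 in place of -1.05, which is within 2-fold. No interval of a miR396 sequence lay wholly beyond 2-fold. The 5 other scalings tried change the ratio of the library factors by at most 0.12 on the log2 scale. Regardless of sign, the smallest log2 ratio of the 5 sequences was 0.41, for mdm-miR396b. Their directions could therefore not reverse, and were the same under all 5 scalings.

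**Figure D2:**
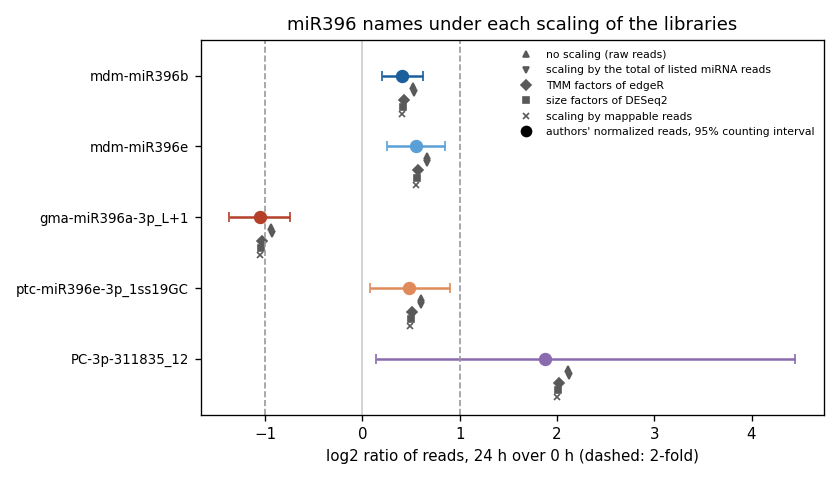
Log2 ratios of 24 h to 0 h for the 5 miR396 sequences, from the authors' normalized reads with 95% counting intervals (coloured) and from 5 other scalings (grey), with 2-fold as dashed lines. The strand gma-miR396a-3p_L+1 lies at -1.05 and crosses the line under 2 of the scalings, while the guides lie at 0.41 and 0.55.

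The balance between the arms of a hairpin can be read within each library and needs no scaling. For the miR396b hairpin, the share of the guide was higher at 24 h. The 5p strand made up 56.7% of the reads of mdm-miR396b and gma-miR396a-3p_L+1 at 0 h (Clopper-Pearson interval 52.6 to 60.8%) and 78.3% at 24 h (74.8 to 81.6%). This is 1.31 guide reads for each partner read at 0 h (1.11 to 1.55) and 3.61 at 24 h (2.97 to 4.43). The change was 2.75-fold (exact conditional interval 2.12 to 3.59). Both strands contributed to it, the guide by its higher and the partner by its lower count. Since these strands have at least 3 and 2 possible hairpins, the value is a balance over those loci and not of a single precursor.

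For the miR396e hairpin, no such change was detectable at this depth. The guide mdm-miR396e made up 64.4% of the reads of its pair at 0 h (58.0 to 70.5%) and 65.4% at 24 h (60.3 to 70.2%). The arm ratio changed by 1.04-fold, with an interval of 0.731 to 1.49, which lies below that of the miR396b hairpin. Over all 5 sequences, the ratio of 5p to 3p reads was 1.43 at 0 h and 2.62 at 24 h, a change of 1.84-fold (1.5 to 2.25).

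The same measure was taken for 189 pairs of strands, from precursors with exactly 2 listed names. Whether the strands of a pair lie on opposite arms was not checked. By name, mdm-miR408b and mdm-miR408b_L-1R+1_1ss8AC are variants of the same strand. Some strands recur in several pairs, so the pairs are not all separate. A change past 2-fold in either direction was seen in 15.3% of the pairs, mostly in those with few reads. The median size was 0.39 on the log2 scale. The miR396b pair, at 1.46, ranked 11. Among the 49 pairs in which each of the 4 counts was at least 50, 4.08% were past 2-fold, which are 2 pairs. The miR396b pair ranked 2 of them, after the candidates PC-5p-1433_2156 and PC-3p-32264_112, whose change had a size of 1.57 with a smallest count of 62 reads. The miR396e pair, at 0.06, ranked 41 of the 49.

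**Figure D3:**
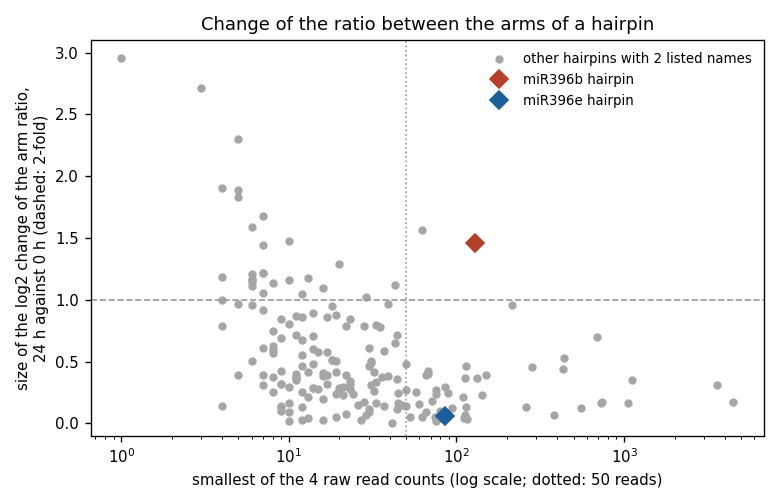
Size of the log2 change in the ratio between the 2 listed strands of a hairpin, 24 h against 0 h, by the smallest of the 4 raw counts (log scale), for 189 pairs. The miR396b pair (red, 1.46 at 129 reads) lies above the dashed 2-fold line, and the miR396e pair (blue, 0.06 at 85 reads) lies near 0.

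Known miRNAs whose ratio was most like that of mdm-miR396b were sought among those that reached 100 raw reads in a library, by the difference in log2 ratio over these 2 libraries. They were ptc-miR168b-3p (log2 ratio 0.42, from 963 to 1284 normalized reads), mdm-miR167g_1ss21AG (0.43, from 23615 to 31832) and gma-miR166i-5p_R+1_1ss20GA (0.36, from 671 to 862), against 0.41 for mdm-miR396b. A likeness over 2 libraries describes them and nothing more.

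Families that target developmental transcription factors in other plants had names that were higher and names that were lower at 24 h. The list held 12 families, of which miR159, miR165 and miR319 had 0 listed names. Of its 52 names tested, 20 were higher and 30 lower at 24 h, with a median log2 ratio of -0.09. Over all names tested, 590 were higher and 604 lower, with a median of 0. Without scaling, the list had 26 higher and 23 lower, and all names had 716 and 481. The 4 named miR396 strands were 3 higher and 1 lower, with a median of 0.45. By comparison, all 11 names of miR156, whose guide targets SPL genes, were lower. All 4 names of miR160, whose guide targets auxin response factors, were higher, as were all 4 names of miR166. Such names include partner strands and variants of the same strand, so they are not separate observations. Past 2-fold were 1 higher name and 3 lower names of the list, and gma-miR396a-3p_L+1 is 1 of the lower.

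Growth-regulating factors were the largest annotated group among the degradome targets of miR396. The degradome table has 10 entries for miR396, which are 7 genes. Of these, 3 are annotated as GRFs, and they are all the GRF genes in the table. The guide mdm-miR396b has 4 genes and mdm-miR396e has 5, and they share the 3 GRFs. The alignment score of the authors adds penalties for mismatches, bulges and G:U pairs, so lower is better, and it ran from 0 to 4 in the table. A target's category runs from 0, where the site holds the single highest peak of the transcript, to 4, where it holds 1 raw read. The library was made from a mixture of storage times, so none of these values can be compared between 0 h and 24 h.

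The GRF site with most reads was in gene13517-v1.0-hybrid, annotated as growth-regulating factor 5. It had 6 degradome reads at position 344 of the gene sequence, in category 0, and 20 of 110 sites in the table had more reads. The authors' P, from a binomial model and not stated to be adjusted, was 0.0112 for mdm-miR396b (score 3) and 0.0307 for mdm-miR396e (score 4). In gene12741-v1.0-hybrid, growth-regulating factor 1, the site at position 563 had 2 reads in category 2, with a P of 0.479 for mdm-miR396b (score 3) and 0.836 for mdm-miR396e (score 4). In gene05636-v1.0-hybrid, growth-regulating factor 2, the site at position 728 had 1 read in category 4, with a P of 0.838 (score 3.5) and 0.993 (score 4). At all 3 sites mdm-miR396b thus had the lower score of the guides, which differ only by G21T, and the reads at a site are the same reads for both. With 1 or 2 reads, the last 2 sites had a P far above 0.05, and cleavage there was not detectable beyond the background at this depth.

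The GRF sites shared a geometry that was rare in the table. Each spans 22 bases of mRNA against 21 bases of miRNA (333 to 354, 552 to 573 and 717 to 738), and the cleavage site lies 10 bases before the end of the alignment. The other 4 miR396 sites span as many bases as the miRNA, with the cleavage site 9 bases before the end. Of 110 sites, 6 had a distance of 10, which is 5.45%, and 3 of the 6 are the GRF sites of miR396. In 101 of the sites the distance was 9. The end of the alignment pairs with the 5′ end of the miRNA, so the additional mRNA base falls on that side of the cleavage site. The longer span and the distance of 10 thus reflect the same base of the alignment. They add no evidence of cleavage at the GRF sites of 1 or 2 reads. In Arabidopsis, pairing of miR396 with GRF mRNAs is known to leave an unpaired mRNA base toward the 5′ end of the miRNA. The mRNA bases at these sites are not shown, since no sequence of the gene set was used here.

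The other 4 genes were each listed for a single miR396 strand. With mdm-miR396b, gene05900-v1.0-hybrid, annotated as homeotic gene regulator, had 2 reads at position 3888 in category 2 (score 3.5, P 0.484). With mdm-miR396e, gene16229-v1.0-hybrid, which has no annotation, had 4 reads at position 276 in category 2 (score 3.5, P 0.484). The gene gene23229-v1.0-hybrid, also without annotation, had 1 read at position 69 in category 4 (score 3.5, P 0.838). The partner strand ptc-miR396e-3p_1ss19GC had 1 gene, gene05716-v1.0-hybrid, annotated as actin-related protein C1B, with 1 read at position 889 in category 4 (score 4, P 0.863). For gma-miR396a-3p_L+1 and for PC-3p-311835_12 the table has 0 entries. None of the 7 genes is listed for a miRNA outside miR396.

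**Figure D4:**
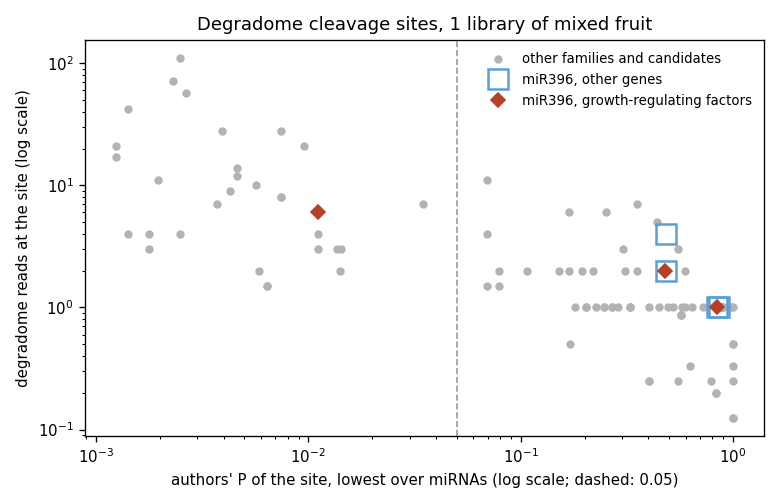
Degradome reads at each of 110 sites (log scale) by the authors' P, taken as the lowest over the miRNAs of a site (log scale, 0.05 dashed), with GRF sites of miR396 as red diamonds and its other sites as blue squares, some of which overlap. The site of growth-regulating factor 5 (6 reads, P 0.0112) is the miR396 site left of the line, and the other 6 lie at P 0.479 or more.

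A miR396 site had at most 6 degradome reads, against up to 110 for miR164 and up to 28 for miR160. In category 0 was 1 of the 7 miR396 genes, against 29.1% of all 103 genes, and 1 gene was below a P of 0.05, against 30.1%. All 3 genes of miR164, which targets NAC genes, were in category 0, with 4 to 110 reads at a site. So were all 5 genes of miR160, with 8 to 28 reads. The 5 genes of miR156 had 1 in category 0 and 1 to 7 reads at a site, close to the 1 to 6 reads of miR396. These are values of 1 library, and mRNA levels of the targets were not analysed here.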

How the data were processed

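For the deposited raw counts of each mature miRNA, the authors used ACGT101-miR 4.2: adaptors and reads of low quality were filtered, mRNA, Rfam and repeat sequences removed, lengths of 15 to 32 nt kept, and reads mapped to miRBase 19 and the Fragaria vesca genome 1.0. The deposited normalized score equals raw reads times about 0.917 at 0 h and 0.846 at 24 h, given by the authors as whole numbers by a formula not stated in the sources used here. For each degradome site, the p-value, category, alignment score and signal (reads) are the authors' deposited values, from ACGT301-DGE 1.0 and CleaveLand 3.0. Site reads can be fractional, but those of miR396 are whole.

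The table's 1431 entries were reduced to 1310 names. Ratios were taken for names that reached 10 raw reads in either library. Intervals are conditional binomial on raw reads times the factors for ratios, exact conditional for arm ratios, Clopper-Pearson for shares and Poisson for counts. Of the pairs of strands from precursors with exactly 2 listed names, 10 had too few reads. The minimum of 50 reads was the value of a planned filter on single names. Asking it of every count of a pair was not planned. Of degradome entries, 1 of 152 had an unreadable range. Hairpin sequences and windows come from a supplementary table of the study, whose per-sample values were not used. That table has no entry used here for PC-3p-311835_12. Members, lists, measures and named miRNAs (all members, the 3 nearest by ratio) were chosen with earlier results of these data known. The ratios and intervals were tried on simulated Poisson counts. These follow the counting model that the intervals assume, so the trial does not cover variation between libraries. RefSeq's gene table was set aside, because its identifiers belong to another genome. Tools were RNAfold 2.7.2, Python 3.11.15 (scipy 1.17.1, numpy 2.4.6, matplotlib 3.10.9, pandas 2.3.3), and, for alternative scaling factors, R 4.3.3 with DESeq2 1.42.0 and edgeR 4.0.16 (TMM).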

Additional observations from a re-analysis of the deposited data

How the results depend on the processing

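The number of miR396 sequences past 2-fold was 2, of which the filter fixed the call of PC-3p-311835_12. It was 1 with no scaling, 1 under scaling by the listed total and 1 among names that reached 50 raw reads in a library. When the counting interval had to lie wholly beyond 2-fold, it was 0. The log2 ratio of gma-miR396a-3p_L+1 was -0.94 with no scaling and -0.93 under scaling by the listed total. The number of target genes was 7, and it was 1 at a P under 0.05, 4 in categories 0 to 2 and 4 with at least 2 reads at the site. The summed ratios of the family (1.10 to 1.21), the guides (1.37 to 1.49) and the partner strands (0.717 to 0.811) and both arm ratios stayed within their counting intervals under every alternative run, and 0 values reversed. No scaling and the listed total change the ratio of the library factors by 0.12 on the log2 scale, and the other scalings by less. None of the scalings tried could thus reverse the direction of a sequence. Other scalings gave PC-3p-311835_12 a log2 ratio of up to 2.12 in place of 1.87. Most of this shift comes from the whole numbers of its normalized reads, 3 at 0 h and 11 at 24 h. Scaling by mappable reads changes the ratio of the library factors by only 0.0019 on the log2 scale, yet gave 2.00. No paired analysis was possible because each storage time has 1 library. Depth limits PC-3p-311835_12 and the sites of 1 or 2 degradome reads most.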
